A study of Mus musculus with 30 samples.

Results

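The genes described here, which stood high in the mouse large intestine, are Mptx1 (1810030J14Rik in the probe lists), Plet1 (1600029D21Rik), Hoxaas3 (2700086A05Rik) and AA467197, followed over 15 adult tissues. Each was read by 1 probe, so 4 of the 42006 noncontrol probes of the array are described, and all 4 are among the 21019 probes that passed the filter on dim signals. They were chosen on measured values. Mptx1 and AA467197 were taken for the difference between the large intestine and the mean of the other 14 tissues, and Plet1 and Hoxaas3 for the difference between the large and the small intestine. Levels in the large intestine and its differences from other tissues are therefore given as a description, with no test. Tests of the 4 genes are confined to the 13 tissues outside the intestine, and to the small intestine against those 13 for Mptx1 and AA467197.

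The tissues came from C57BL/6 mice, all male and 28 weeks old by their labels, with no treatment that separated the groups and with 2 arrays per tissue, 30 in all. On each array the tissue RNA was labelled with Cy3 and a common reference with Cy5, without a dye swap, and the reference was the same on all arrays, a commercial cell line pool to which RNA of embryonic stem cells was added. The groups were large intestine, small intestine and stomach of the gut, then bladder, bone, brain cortex, cerebellum, eyes, fat, heart, kidney, liver, lung, muscle and skin. Per the series text and the methods the 2 samples of a tissue came from different animals. The series text excepts bone and fat as replicated once, while their labels name 2 arrays, and for these 2 tissues the spread between arrays may be technical. Values are log2(Cy3/Cy5), where 0 means equal signal in tissue and reference, unless a Cy3 level is named, and SDs are over the 2 arrays.

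Mptx1 encodes a mucosal pentraxin, a secreted relative of the acute phase proteins CRP and serum amyloid P, and is known from epithelium of the gut. Plet1 encodes a surface glycoprotein of placenta and of progenitor cells in several epithelia. Hoxaas3 is a long noncoding RNA transcribed from the HoxA cluster, whose genes set position along the body axis. AA467197, also named Nmes1, encodes a small mitochondrial protein related to the NDUFA4 subunit of cytochrome c oxidase. The large intestine takes up water and faces a dense microbial community across a mucus layer, with an epithelium of absorptive colonocytes and goblet cells.

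In the RefSeq annotation of GRCm38.p6, Mptx1 lies at chr1:174330518-174332877 and is protein coding. Plet1, also protein coding, lies at chr9:50494525-50505639. Hoxaas3 is a long noncoding RNA at chr6:52201124-52213597, a stretch that holds Hoxa5 (52201754 to 52204587) and Hoxa6 (52204858 to 52208672) and overlaps Hoxa3. AA467197 lies at chr2:122637887-122641076. The 4 probes are 60 bases long, and all values below rest on them, so the 2 that can be shown whole and 30 bases of the others are printed in the 5′ to 3′ direction as the files give them.

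Mptx1 probe: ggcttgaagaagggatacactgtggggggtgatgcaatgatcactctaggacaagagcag
Hoxaas3 probe: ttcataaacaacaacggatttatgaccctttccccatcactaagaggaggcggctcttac
Plet1 probe, first 30 bases: ctactagcagatttccactgtgcccagacc
AA467197 probe, first 30 bases: ggtttgcctgcattctttggatcctgcatt

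No other probe of the 42006 shares a run of 15 bases, on either strand, with the probes of Mptx1, Plet1 or Hoxaas3, and 1 does with that of AA467197. RefSeq also lists a paralogue, Mptx2 (chr1:173274461-173277756). How far its transcript could bind the Mptx1 probe was not tested. Bases 1 to 54 of the Plet1 probe match chr9:50505002-50505055 on the plus strand, the strand of Plet1, 584 bases before the end of the gene. An antisense gene, Plet1os, ends its overlap with Plet1 earlier: its start lies 197 bases short of that match. Hoxaas3 overlaps HoxA genes, and the strand of its probe relative to them was not tested.

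The 250 bases before the transcription start are shown for Mptx1 and its paralogue because these windows share a rare run, and for Plet1 and AA467197 because their base composition differs from it. Capitals mark TATAAA on either strand, TGACTCA (the AP-1 site) and the shared run GTTAATATTAAC. Hoxaas3 is not among the RefSeq promoter sequences used here, so 3 of the 4 genes matched.

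Mptx1, chr1:174330268-174330517, plus strand: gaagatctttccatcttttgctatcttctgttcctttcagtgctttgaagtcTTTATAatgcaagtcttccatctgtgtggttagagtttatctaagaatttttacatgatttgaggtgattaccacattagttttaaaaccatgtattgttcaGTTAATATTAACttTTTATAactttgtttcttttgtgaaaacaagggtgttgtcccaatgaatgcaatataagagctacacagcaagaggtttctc
Mptx2, chr1:173277757-173278006, minus strand: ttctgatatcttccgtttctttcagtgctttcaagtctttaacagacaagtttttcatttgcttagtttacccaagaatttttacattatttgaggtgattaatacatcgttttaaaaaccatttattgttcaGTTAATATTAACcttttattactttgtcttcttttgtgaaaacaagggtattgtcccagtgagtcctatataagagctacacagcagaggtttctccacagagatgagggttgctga
Plet1, chr9:50494275-50494524, plus strand: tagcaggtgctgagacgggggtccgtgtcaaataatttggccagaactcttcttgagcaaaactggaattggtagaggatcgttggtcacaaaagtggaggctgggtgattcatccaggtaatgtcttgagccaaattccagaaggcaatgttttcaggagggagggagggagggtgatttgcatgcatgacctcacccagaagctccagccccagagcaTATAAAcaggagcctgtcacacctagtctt
AA467197, chr2:122637637-122637886, plus strand: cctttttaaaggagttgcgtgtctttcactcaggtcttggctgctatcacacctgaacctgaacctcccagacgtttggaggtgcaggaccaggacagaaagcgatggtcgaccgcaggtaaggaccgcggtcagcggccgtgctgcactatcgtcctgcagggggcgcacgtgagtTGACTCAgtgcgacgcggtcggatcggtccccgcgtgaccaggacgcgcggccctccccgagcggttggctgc

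The Mptx1 window had 32.4% G and C and 0 CpG dinucleotides, and the AA467197 window had 62.8% and 24. Plet1 lay between them, with 3 CpG dinucleotides, and the median over all 32851 windows was 52.4% and 6. TATAAA, which 12.4% of all windows hold on one strand or the other, occurred in the Plet1 window at -30 relative to the start. It occurred in the Mptx1 window on the minus strand at -198 and -82. TGACTCA, held by 4.46% of windows, occurred in that of AA467197 at -73. The Mptx1 and Mptx2 windows were 74.3% identical in a global alignment, with a longest shared run of 21 bases. The run GTTAATATTAAC, which is its own reverse complement and was picked after the windows had been read, was found in 2 of the 32851 windows, those of Mptx1 and Mptx2. TTTATG (the Cdx type, in 10.8% of windows) and TGTTTAC (forkhead, 3.17%) were searched on both strands and were in none of the windows of Mptx1, Plet1 and AA467197.

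Over all probes, 28 of the 30 arrays were most like the other array of their own tissue. The exceptions were large intestine array 1, which was nearer to small intestine array 2 (Pearson's r = 0.89 over probes, which are not independent replicates) than to large intestine array 2 (r = 0.80), and fat array 1, which was nearest to bladder array 1 (r = 0.71, against 0.67 with fat array 2). Values of the 4 genes on those arrays are given for each array. Large intestine array 1 and small intestine array 2 were on the same slide. The arrays were on 11 slides scanned on 5 days.

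The label was first checked with marker genes of the gut. Villin 1 (Vil1), a protein of the brush border, read 5.61 and 5.12 on the large intestine arrays and 5.09 and 5.84 on those of the small intestine. Lct, the lactase of small intestinal enterocytes, read 0.64 and 0.83 against 4.61 and 5.47. Vil1 was thus high on all 4 arrays, and on Lct both large intestine arrays were apart from the small intestine.

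Other enterocyte genes separated the 2 large intestine arrays from each other. Sis (2010204N08Rik), the sucrase-isomaltase of the small intestine, read 7.91 on large intestine array 1 and -0.46 on array 2, against 9.02 and 9.51 in the small intestine. Cps1, a mitochondrial enzyme of the urea cycle that enterocytes also make, read 4.34 and -0.14, against 6.66 or more in the small intestine. Array 1 was thus close to the small intestine for Sis and array 2 far from it. The summed Cy3 level of the 10 enterocyte genes with a probe was 76010 on array 1 and 12790 on array 2, against 832100 and 1106000 on the small intestine arrays and a median of 2585 outside the intestine. The part of these genes in the values of Mptx1, Plet1, Hoxaas3 and AA467197 was not tested, and each of the 4 is given on both arrays.

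**Figure D1:**
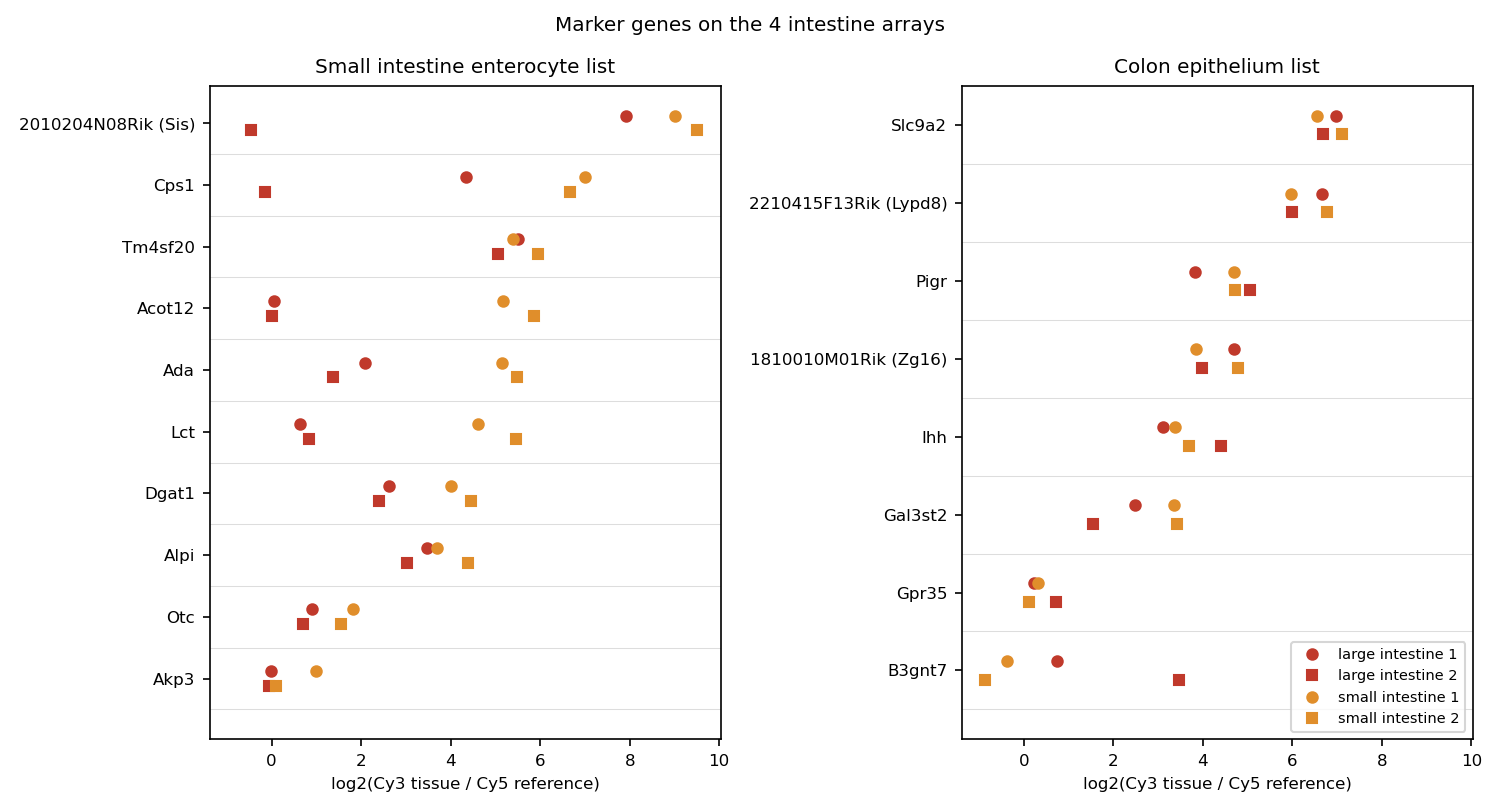
Log2 ratio of tissue over reference (horizontal axis) on the 4 intestine arrays for the measured genes of the small intestine enterocyte list (left) and 8 of the 9 of the colon epithelium list (right); circles are array 1 and squares array 2, red for the large and orange for the small intestine. Sis and Cps1 lie at 7.91 and 4.34 on large intestine array 1 and below 0 on array 2, while Lct and Acot12 lie under 1 on both.

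Mptx1 was seen in the intestine and at or near background elsewhere. It read 6.68 and 6.72 on the large intestine arrays (6.70 ± 0.03, SD, n = 2) and 5.74 and 3.36 on the small intestine arrays (4.55 ± 1.68). Outside the intestine all 26 arrays lay between -0.17 and 0.65. The large intestine arrays were above every other array, the small intestine arrays came next, and all tissues outside the intestine overlapped with their neighbours in the order. Liver, the highest of these by its mean, read 0.02 and 0.65.

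The ratio did not carry the full range of this gene, because the reference signal at its spot moved with the tissue signal. Cy3 mean signals were 107140 and 118930 scanner units in the large intestine, 5087 and 304 in the small intestine, and 54.9 to 96.0 elsewhere. Cy5 signals, which come from the same reference RNA on every array, were 6321 and 4015 in the large intestine and 253 and 71.2 in the small intestine, against a median of 58.1 and a highest value of 109 on the other 26 arrays. On those 26 arrays the Cy5 signal of Mptx1 was never well above background. Cy5 was 5.90% and 3.38% of Cy3 on the large intestine arrays. Bright spots in general were then counted, Mptx1 and AA467197 included: of 61 probes with a mean Cy3 signal over 50000 in the large intestine, 24 had a median Cy5 signal under 500 outside the intestine, and all 24 had a higher Cy5 signal in the large intestine, by a median of 56.9-fold (2.93 to 405).

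**Figure D2:**
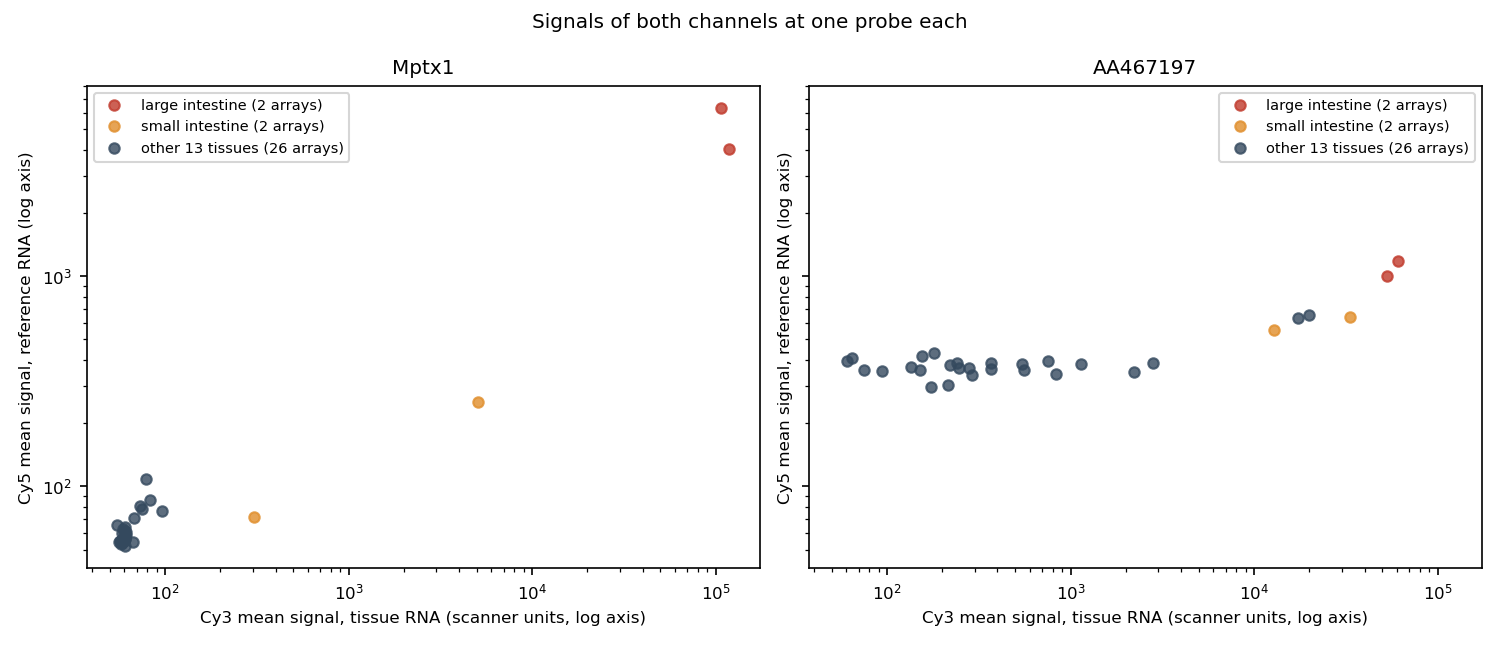
Cy5 mean signal of the common reference against Cy3 mean signal of the tissue, both in scanner units on log axes, for Mptx1 (left) and AA467197 (right), 1 point per array. Although the reference RNA is the same on all arrays, the Cy5 signal of Mptx1 rises from about 58.1 on the arrays outside the intestine to 6321 and 4015 in the large intestine, and that of AA467197 from a median of 373 to 1187 and 1004.

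The Cy3 level alone, on a log2 scale after normalisation between arrays, was therefore read beside the ratio; this setting was chosen after seeing the data. On it Mptx1 reached 18.39 and 17.88 in the large intestine, 13.11 and 9.38 in the small intestine, and 6.14 to 6.93 on all other arrays. Most of the other 14 tissues were at or near background, which enters the size of a difference from their mean. The large intestine stood 11.42 above the mean of the other 14 tissues, against 6.31 on the ratio scale. Against the 10 tissues in which neither array was well above background, its level was at least 3030-fold to at least 3660-fold higher, with each dim array set to the higher of its own value and the lowest level measured above background on it. In kidney, liver and skin 1 of 2 arrays was above background, and no fold is given.

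The step between the large and the small intestine was set by the scale for this gene. The mean difference was 2.15 as a loess-normalised ratio, 1.51 with median centring, 0.39 with signals as processed by the scanner software, 0.54 in the authors' value table and 6.89 (119-fold) as a Cy3 level. All 5 were positive, but the processed signals and the authors' table are not separate scales. As a loess-normalised ratio the difference also turned on the small intestine array, being 3.33 without array 1 and 0.96 without array 2. As a Cy3 level the large intestine was 32.5-fold higher than small intestine array 1 and 434-fold higher than array 2. In the authors' table those 2 arrays lay closer together, at 11.11 and 11.36 on its log2 scale. Within the slide that held large intestine array 1 and small intestine array 2 it was 3.31 as a ratio and 9.01 as a Cy3 level.

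The small intestine was tested against the 13 tissues outside the intestine. All of these enter the mean that chose Mptx1, but with equal weights, so their difference from each other did not enter it. Mptx1 was higher there than the mean of the 13 tissues outside the intestine by 4.48 ± 0.31 (SE) in log2, with an adjusted p of 1.37e-09 by limma over all 21019 probes. The SE and the p-value rest on a spread pooled over all tissues, most of them at or near background. They do not measure the spread between the 2 small intestine arrays, whose SD was 1.68. The call was made for 11.8% of all probes in this direction. Both small intestine arrays were above all 26 arrays outside the intestine. Since 23 of those 26 arrays were not well above background, the size of the difference rests on the background and its treatment: it was 6.07 with signals processed by the scanner software, 6.06 in the authors' table and 3.45 with median centring. In Cy3 level the small intestine was at least 28.4-fold higher. That bound was 104-fold with small intestine array 1 alone and 7.76-fold with array 2 alone. The ratio difference was 3.29 without small intestine array 1 and 5.67 without array 2. Mptx1 passed the filter on dim signals through the intestine alone, and none of the 13 tissues had both arrays above background. Its F-test among the 13 (adjusted p = 1 by limma) therefore says nothing about the gene there and is not counted.

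AA467197 was high along the whole gut. It read 8.05 and 7.56 in the large intestine (7.81 ± 0.35), 7.17 and 7.08 in the small intestine and 6.50 and 6.52 in the stomach. Eyes followed at 4.14 and 2.62 and bone at 2.76 and 3.27, and these 2 tissues overlapped. Lung, fat and skin lay between 0.91 and 1.51 with overlapping arrays. The remaining 7 tissues lay between 0.27 in cerebellum and -1.44 in liver, where the probe was not well above background on either array.

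The 3 gut tissues did not overlap in the ratio, and their gaps of 0.68 and 0.61 exceeded the pooled SD of 0.32 for a single array. As Cy3 levels they were 17.42 and 16.85, 15.77 and 15.34, and about 14.94 ± 0.10 in the stomach, so that the large intestine was 2.99-fold above the small intestine and 4.57-fold above the stomach. The reference signal moved with the tissue here too: Cy5 was 1187 and 1004 in the large intestine, 639 and 557 in the small intestine and 633 and 654 in the stomach, against a median of 373 outside the intestine. Against liver the large intestine was at least 1300-fold higher in Cy3 level. The ratio difference between large and small intestine was 0.97 within the shared slide and 0.39 between the other 2 arrays.

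The small intestine, which entered the choice of AA467197 with the same weight as each of the 13 tissues, was higher than the mean of the 13 tissues outside the intestine by 6.02 ± 0.23 (SE), adjusted p = 3.21e-13 by limma. Those 13 differed among themselves, with an adjusted p of 3e-12 in the F-test of limma, which 88.4% of all probes passed. For each tissue against the mean of the other 12, a call needed an adjusted p under 0.05 and a log2 difference of at least 1. By this rule AA467197 was higher in stomach by 5.86 ± 0.23 (SE; 10.2% of all probes were called higher in stomach), in eyes by 2.47 ± 0.23 (12.6%) and in bone by 2.08 ± 0.23 (8.58%). The difference in eyes was 1.71 without eyes array 1 and 3.23 without eyes array 2. Both stomach arrays were above all 24 arrays of the other 12 tissues.

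AA467197 was lower in liver (15.4% of all probes were called lower there), in muscle (15.6%), in kidney by -1.52 ± 0.23 (9.82%), in brain cortex by -1.36 ± 0.23 (13.4%), in bladder by -1.34 ± 0.23 (6.13%) and in heart by -1.0025 ± 0.23 (8.74%). Adjusted p-values of limma ran from 1.63e-08 in liver to 0.00203 in heart. In liver neither array was well above background, so the fitted -2.69 is set by the background (-5.83 with processed signals), and in Cy3 level liver was at least 6.14-fold lower. In muscle 1 of 2 arrays was well above background, and no size is given. The heart value sits at the limit of the call and lost it under several settings, the bladder call was lost with median centring and with slide as a random block, and that of brain cortex with median centring. In cerebellum, fat, lung and skin the gene was not called, and its differences ran from -0.91 to 0.37.

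A microRNA lies inside this gene. RefSeq places the Mir147 hairpin at chr2:122640803-122640881 on the plus strand, 195 bases before the end of AA467197, and lists mir-147 among the synonyms of the gene. The mature 5p strand is shown with its seed, bases 2 to 8, in capitals; the array holds mRNA probes and its level was not measured.

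mmu-miR-147-5p: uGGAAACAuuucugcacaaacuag

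Plet1 was as high in eyes and bladder as in the large intestine, and lower on every array of the other 12 tissues. The large intestine arrays read 6.10 and 5.83 (5.97 ± 0.19), the eyes 6.73 and 5.78 and the bladder 6.05 and 5.86. These 3 tissues overlapped array by array. Stomach followed at 5.41 and 5.55, lung at 4.88 and 5.13, kidney at 4.46 and 4.31 and skin at 3.63 and 3.12, each below the one before without overlap, although gaps of 0.47 to 0.62 between some of them did not exceed the pooled SD of 0.84 for a single array. That pooled SD is raised by fat, whose 2 arrays had an SD of 3.25. The SDs of stomach, lung and kidney were 0.10, 0.18 and 0.10. Liver read 1.57 and 1.73.

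What set the 2 parts of the intestine apart was the low level in the small one, at 0.65 and 0.08. The difference of 5.61 chose the gene and is a description. It was 6.03 within the shared slide, 5.18 between the other 2 arrays and 5.73 as a Cy3 level. The Cy5 signal of Plet1 stayed within 454 to 985 on all 30 arrays. At the bottom of the order were heart (-1.05 and -0.90), bone (-1.79 and -0.47), muscle (-1.47 and -1.89), cerebellum (-1.89 on both) and brain cortex (-2.15 and -1.77).

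Outside the intestine Plet1 differed among the 13 tissues with an adjusted p of 1.01e-08 in the F-test of limma. Against the mean of the other 12 it was higher in eyes by 4.60, bladder by 4.28 (8.15% of all probes were called higher in bladder), stomach by 3.76, lung by 3.25 (12.3%) and kidney by 2.57 (10.1%), each ± 0.62 (SE), with adjusted p-values of limma between 8.01e-06 and 0.00235. The kidney call was lost with slide as a random block (adjusted p = 0.0537 by limma). It was lower in brain cortex by -4.30, cerebellum by -4.22 (14% called lower), muscle, bone (7.75%) and heart by -3.23, with adjusted p-values of limma from 9.99e-06 to 0.000359. In muscle neither array and in bone 1 of 2 was well above background, so the fitted -4.00 and -3.40 are set by the background (-5.93 and -6.14 with processed signals). In Cy3 level muscle was at least 14.9-fold lower. Skin, 1.48 above the others, had an adjusted p of 0.0624 by limma, and liver and fat were not called. The SE of 0.62 is pooled over tissues and includes the wide spread of the 2 fat arrays.

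Fat was split. Plet1 read 3.94 on fat array 1 and -0.66 on fat array 2, so the mean of 1.64 ± 3.25 describes neither. Fat array 1 is the one most like bladder array 1 over all probes, a tissue in which Plet1 read 6.05. The part of other tissue in the value of fat array 1 was not tested. Leaving out either fat array takes the spread of this pair out of the pooled SD. An F-test without fat array 1 therefore cannot tell which of the 2 arrays stands for fat, and nothing is read from it.

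**Figure D3:**
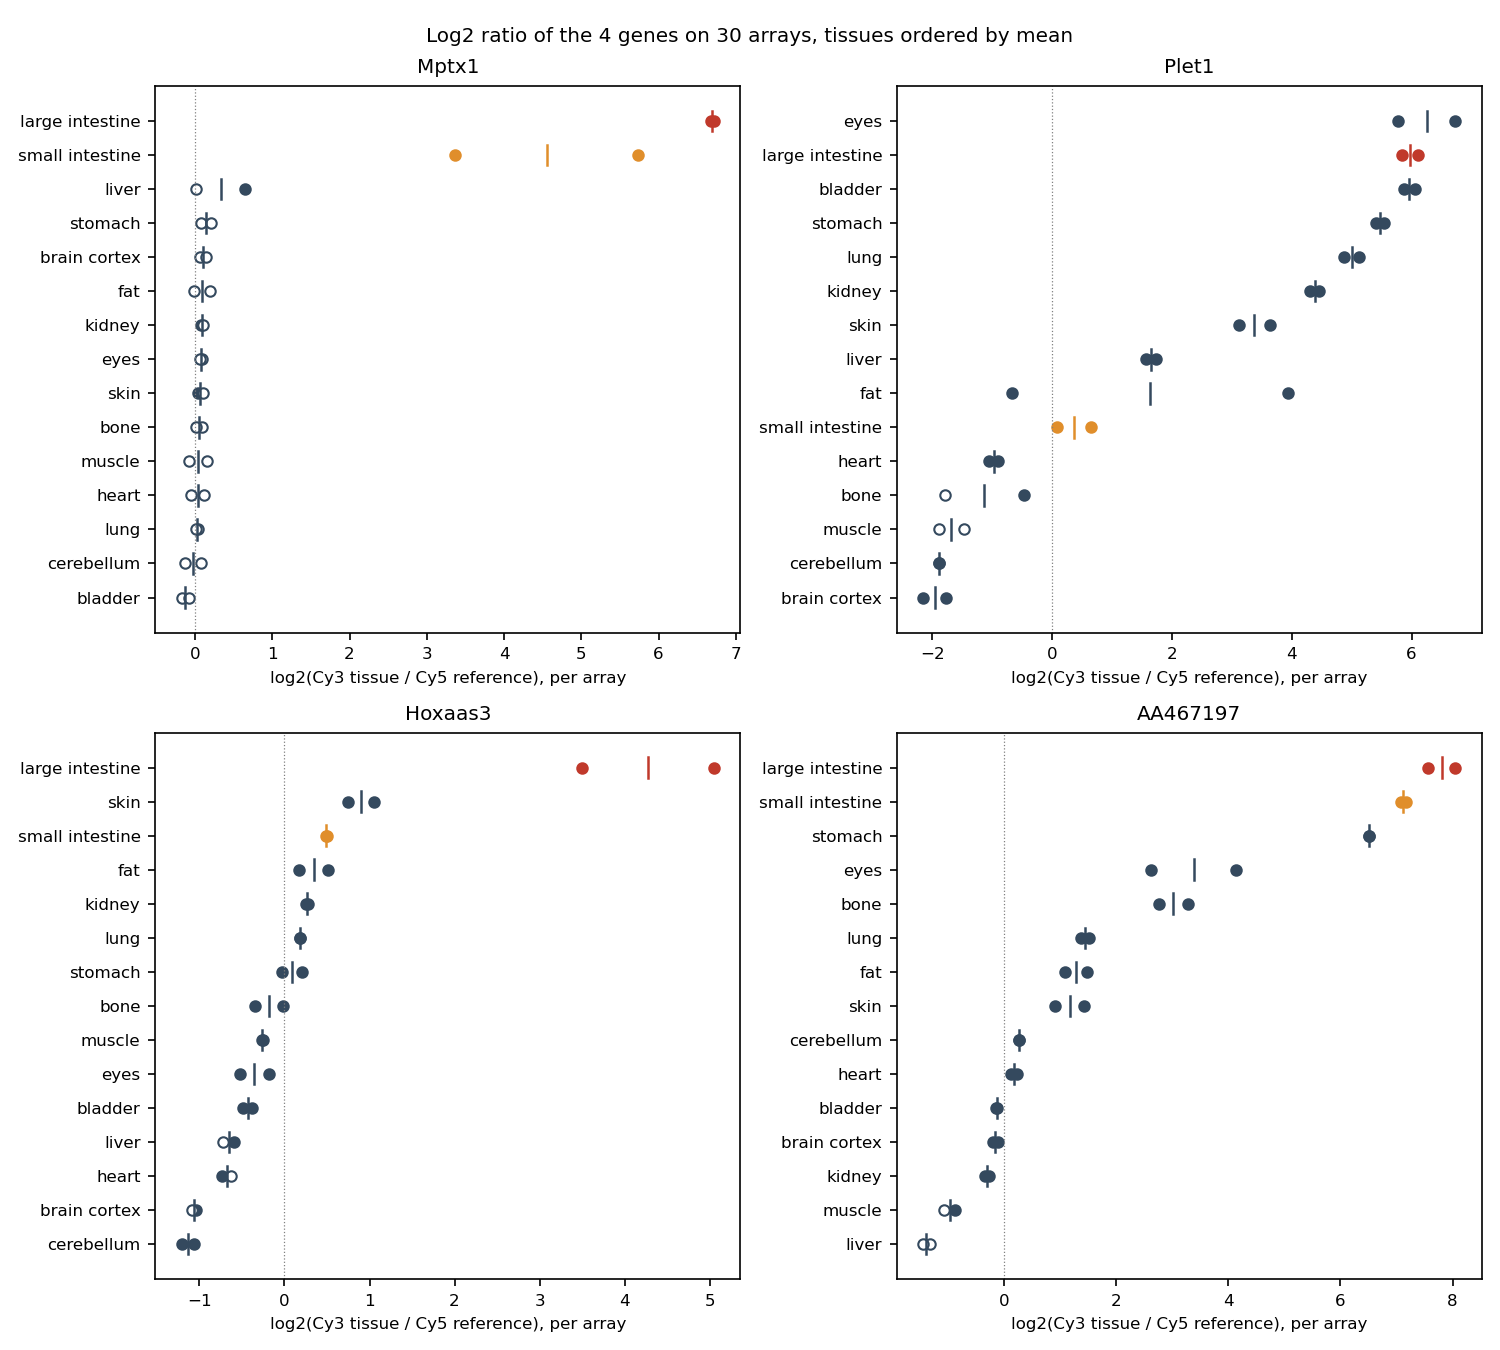
Log2 ratio of tissue over reference for each gene on all 30 arrays, tissues ordered by mean; points are arrays, vertical bars are means of 2 arrays, filled points are well above background in Cy3 and open points are not. Mptx1 stands apart in large (6.68 and 6.72) and small intestine, AA467197 in the gut including stomach (6.50 and 6.52), Hoxaas3 in large intestine alone, and Plet1 reaches the large intestine level in eyes and bladder.

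Hoxaas3 stood apart in the large intestine. It read 3.50 and 5.05 in the large intestine (4.27 ± 1.096), 0.50 and 0.48 in the small intestine and between -1.21 and 1.06 elsewhere. The 2 large intestine arrays did not agree closely, and both were above every other array. Array 2, on which Sis was low, had the higher value. Skin was next at 1.06 and 0.75, then the small intestine, fat (0.17 and 0.51) and kidney (0.27 and 0.25), and from the small intestine down most neighbours overlapped. Gaps between them were 0.02 to 0.38, against a pooled SD of 0.30.

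The large intestine stood 3.78 above the small intestine as a ratio and 3.69 (12.9-fold) as a Cy3 level. The difference was 3.01 without large intestine array 2, 4.56 without array 1, and 3.01 within the shared slide. In Cy3 level the large intestine was 10.1-fold above skin and 37.9-fold above cerebellum. These folds and the 12.9-fold use the mean of 2 arrays that lay apart, at 10.96 on array 1 and 12.65 on array 2. Cy3 mean signals were 835 and 2297 in the large intestine and 171 and 122 in the small intestine. The Cy5 signal was 262 and 302 in the large intestine, within the range of 189 to 375 outside the intestine.

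Among the 13 tissues outside the intestine Hoxaas3 differed with an adjusted p of 0.000141 in the F-test of limma. Skin was called higher than the mean of the other 12, by 1.23 ± 0.22 (SE; adjusted p = 0.000225 by limma), as 10.2% of all probes were. It was the only one of the 13 called for this gene. Cerebellum and brain cortex, the lowest at -1.21 to -1.04, differed by -0.98 and -0.90 from the mean of the other 12, with adjusted p-values of 0.00103 and 0.00207 by limma, and missed the call by the size of the difference. So did fat, at 0.62 above (adjusted p = 0.0387 by limma). In brain cortex 1 of 2 arrays was well above background.

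**Figure D4:**
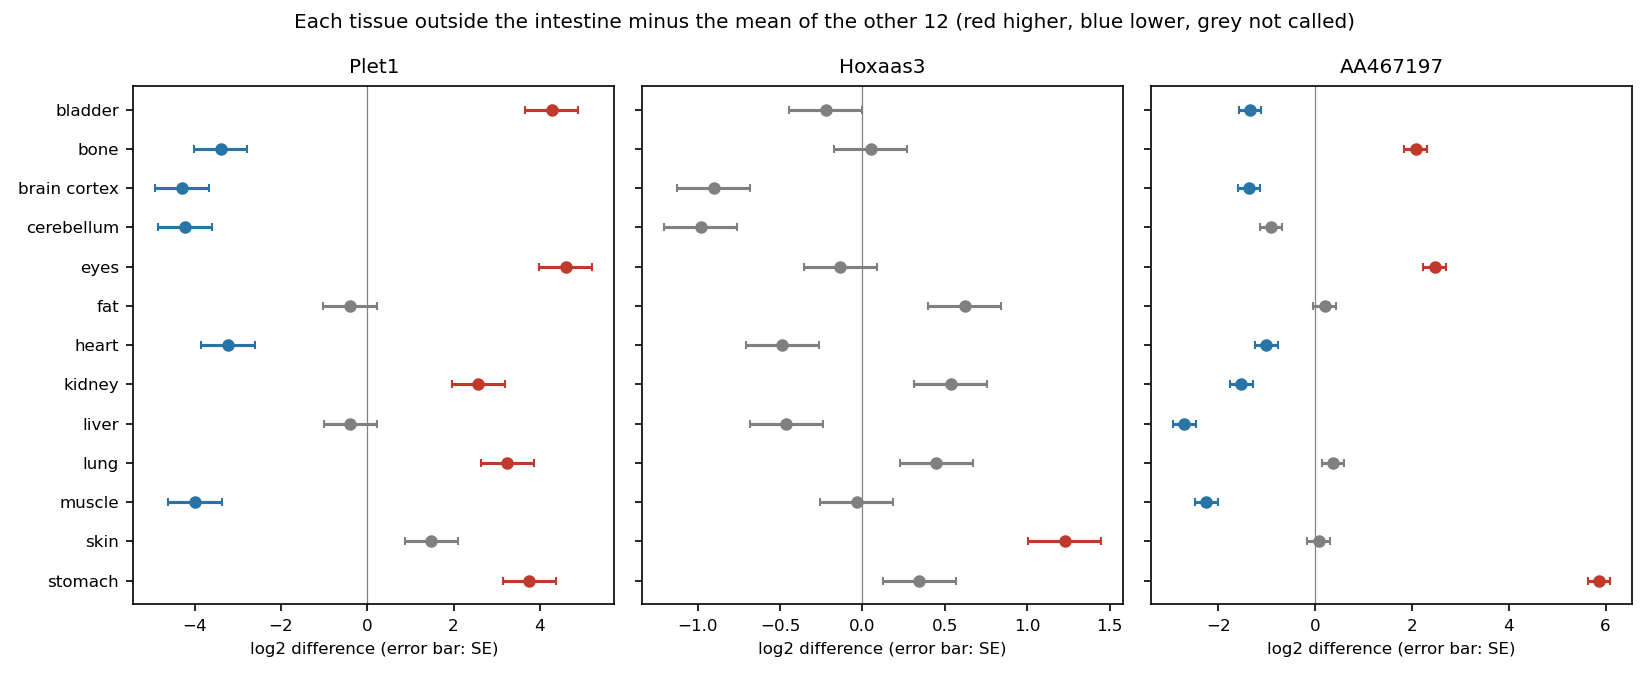
Log2 difference of each tissue outside the intestine from the mean of the other 12 for Plet1, Hoxaas3 and AA467197, with bars for the standard error; red points were called higher, blue lower and grey not called. Plet1 was called in 10 of 13 tissues, AA467197 in 9 and Hoxaas3 in skin only, while Mptx1, at background in these tissues, is not drawn.

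The 3 genes measured outside the intestine, Plet1, Hoxaas3 and AA467197, each passed the F-test among the 13 tissues, as 88.4% of all probes did. Of the 4 genes, 3 had both large intestine arrays above every other array of the series, as 1.05% of 20852 probes without missing values did, but the choice of the genes bears on that count and nothing is read from it. Scan days allowed the F-test within 2 sets of tissues that share no day. In the 8 tissues of the first set the adjusted p of limma was 2.6e-12 for Plet1, 5.82e-07 for Hoxaas3 and 3.68e-07 for AA467197 (90.9% of probes called). In the 5 tissues muscle, skin, stomach, fat and bone it was 0.0117, 0.0115 and 2.04e-05 (51.7%).

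How far each gene was spread over the tissues was expressed as information in bits, computed from the shares of the 15 tissues in the summed linear ratio, with 0 for an even spread and 3.91 as the most possible. Mptx1 had 2.47 bits, AA467197 1.98, Hoxaas3 1.42 and Plet1 1.12, against a median of 0.16 over the probes past the filter. The large intestine held 73.6%, 46.0%, 59.1% and 19.7% of their summed ratios. For Hoxaas3 the share was 45.8% with large intestine array 1 alone and 71.2% with array 2 alone, with 0.91 and 1.98 bits. It was 50.3% and 41.8% for AA467197, 21.2% and 18.2% for Plet1 and 73.4% and 73.9% for Mptx1. As Cy3 levels the large intestine held 98.8% for Mptx1 and 62.0% for AA467197. The information was then 3.79 bits for Mptx1, 2.34 for AA467197, 1.28 for Hoxaas3 and 1.18 for Plet1. Since the genes were chosen for such levels, these are descriptions.

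Likeness between the genes was read over the means of 15 tissues, which include the levels on which they were chosen. Pearson's r of Mptx1 was 0.81 with Hoxaas3, 0.74 with AA467197 and 0.19 with Plet1. Over the 13 tissues outside the intestine, where Mptx1 was at background and gives no value, r was 0.52 between Plet1 and Hoxaas3 (0.48 over 15), 0.42 between Plet1 and AA467197 (0.37) and 0.32 between Hoxaas3 and AA467197 (0.65). The points share arrays and the reference, and no test was made.

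The named probes most like each gene over the 15 tissue means were then listed, from 5043 symbols. Mptx1 was at or near background outside the intestine, so its correlations rest on the means of the 2 intestines. The probes nearest to it were 1810065E05Rik (r = 0.99), Tm4sf20 (0.97), 4930439D14Rik (0.96) and 1700066B19Rik (0.94). The first of these read 3.74 and 3.25 in the large and 2.41 and 1.39 in the small intestine, with no tissue outside the intestine above 0.14. For AA467197 they were 1810007E14Rik, now Phgr1 (0.92), 1810010M01Rik, now Zg16, a lectin of goblet cells (0.91), Fzd5, a Wnt receptor (0.91), and 2010002M12Rik, now Ifit1bl2 (0.90). All 4 had stomach as their highest tissue outside the intestine, as AA467197 did.

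For Plet1 the nearest were 4732473B16Rik, now Tent5b (0.94), AI661453 (0.89), 4732474O15Rik, now Macc1 (0.85), and AI662250, now Vmac (0.83), and their highest tissues outside the intestine were bladder or stomach. For Hoxaas3 they were 4930432B10Rik (0.90), B3gnt7 (0.90), 2310034C09Rik (0.88) and Aqp12 (0.86). Without the large intestine the correlations with Hoxaas3 were 0.19 to 0.60, whereas those with Plet1 were 0.81 to 0.93. B3gnt7, a glycosyltransferase, read 0.73 and 3.47 in the large intestine and -0.37 and -0.86 in the small intestine. It was higher on array 2, as Hoxaas3 was.

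The surroundings of the 4 genes in the intestine were read from lists of known genes. Of the small intestine enterocyte list, 10 of 41 genes had a named probe and 9 passed the filter. Of these, 6 were called lower in the large than in the small intestine and none higher (6.32% and 5.05% of all probes were called so), with a median of -3.60 against 0.01 over all probes. Acot12, an acyl-CoA thioesterase, was lower by -5.49 ± 0.23 (SE), Sis by -5.54 ± 1.42, Cps1 by -4.73 ± 0.76 and Lct by -4.30 ± 0.48. Sis read 7.91 and -0.46 in the large intestine against 9.02 and 9.51 in the small intestine, and Cps1 read 4.34 and -0.14 against 6.66 at the lowest, so both were lowest on large intestine array 2 and lower on array 1 than on either small intestine array. The call of Sis was lost without either small intestine array (adjusted p = 0.0607 and 0.0624 by limma) and with scan day as a fixed block. With only the 4 intestine arrays in the fit, none of the calls between the intestines given here and below for list genes was made. Plet1 and Hoxaas3 were higher in the large intestine, but they were chosen for that difference, so no contrast with this list is read from them.

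Of the 40 genes of the colon epithelium list 9 were measured. Of these, 2 were called higher in the large than in the small intestine, among them B3gnt7 by 2.72 ± 0.53 (SE). Gal3st2, a sulfotransferase, was called lower by -1.38 ± 0.20, reading 2.49 and 1.55 against 3.36 and 3.43, and the median of the 9 was 0.02. The call of Gal3st2 was lost without large intestine array 2, with processed signals, with median centring, in the authors' table and with slide as a fixed block. Against the mean of the other 14 tissues 8 of the 9 were called higher (10.7% of all probes), as were 8 of the 9 measured genes of the list for both intestines, with medians of 3.09 and 3.01 against -0.10 over all probes. Phgr1, a small protein of gut epithelium, was higher by 7.28. No gene of the list for both intestines was called between large and small intestine, but 1 was called lower with slide as a fixed block and without either fat array, and 1 higher and 2 lower as a Cy3 level.

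Of the 18 pentraxin and acute phase genes 6 were measured. None was called between large and small intestine by limma, with a median of -0.17, and 1 was called higher with slide or scan day as a fixed block and without either fat array, and 1 lower with processed signals and in the authors' table. C4bp, a complement inhibitor, was called higher in the large intestine than in the other 14 tissues by 2.19, reading 2.72 and 2.81, and 3 were called lower (11.2% of all probes), among them F5, a coagulation factor, by -2.23 and Spp2 by -1.11. Ptx4 (1110018H23Rik), a pentraxin, read 0.10 and -0.18 in the large intestine. Of the cytochrome c oxidase genes and NDUFA4 relatives, 10 of 27 were measured. Cox7b was called lower in the large than in the small intestine by -1.31 ± 0.34 (SE), reading 0.74 and -0.95 against 1.40 and 1.01. None was called higher, and the median was -0.11. Without large intestine array 1, Cox10, a heme A synthesis enzyme, was called higher by 1.41. The call of Cox7b was lost without small intestine array 1, without large intestine array 2, with median centring and with slide or scan day as a block. AA467197 differed by 0.68.

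Of the 28 genes of the list for the HoxA cluster and posterior Hox genes 1 had a named probe, and it was not called between large and small intestine. The HoxA genes around Hoxaas3 were not analysed here. Of the stratified and transitional epithelium genes, 19 of 38 were measured and 18 passed the filter. Sprr1a, a protein of the cornified envelope, was called higher in the large than in the small intestine by 1.52 ± 0.39 (SE), reading 0.18 and 1.19 against -1.24 and -0.42, and the median was 0.08. That call was lost without small intestine array 1, without large intestine array 2 and with slide as a fixed block. Serpinb5, a serpin of epithelia, was not called (adjusted p = 0.0516 by limma), but was called higher under several alternatives, slide or scan day as a block and leaving out either fat array among them, by 1.35 to 2.44. Their summed Cy3 level was 54190 and 83860 in the large intestine and 44220 and 48150 in the small intestine.

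Lists for other cell types were short and had 1 call each between the intestines, where 5.05% of all probes were called higher and 6.32% lower. The 5 measured smooth muscle genes summed to a Cy3 level of 63430 and 167300 on the large intestine arrays and 12000 and 21230 on those of the small intestine. Csrp1, a protein of smooth muscle, was called higher in the large intestine by 2.51 ± 0.46 (SE), and it was 1 of 5. The median difference of the 5 was 0.92. All 5 were called higher in the large intestine than in the mean of the other 14 tissues, as 10.7% of all probes were. The 9 skeletal muscle genes summed to 6176 and 22820 against 1436 and 1536. Tnni1, slow troponin I, was called higher by 4.16 ± 0.78 (SE), reading 3.19 and 4.62 against -0.35 and -0.15. Mstn and Actn3, also on that list, read 0.12 and 0.07, and -2.90 and -2.51, in the large intestine. Over the 9 genes the median difference between large and small intestine was 0.15. The 18 leukocyte genes summed to 13210 and 8150 against 14090 and 11110, and 1 of the 17 past the filter, Rgs13, was called lower by -1.41, reading 2.62 and 1.19 against 3.59 and 3.04. The 3 pancreas genes summed to 1507 and 1497 against 2535 and 2209, with Aqp12 called higher by 1.16, reading 1.02 and 2.17 against 0.61 and 0.26. The calls of Rgs13 and Aqp12 were lost without large intestine array 2 and with slide or scan day as a block. Their part in the values of the 4 genes was not tested. In whole tissue, fewer cells of a type and less RNA per cell cannot be told apart.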

How the data were processed

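RNA of 15 tissues was hybridised with a common reference on Agilent arrays of 2 colours, 2 per tissue. The deposited spot files, made by the authors with Agilent Feature Extraction, hold intensity in scanner units for each channel and, as other values, flags per spot. The value table of the authors holds log10 of a Cy3 level for 25030 probes, and stood as an alternative after conversion to log2. Its exact normalisation is not given in the sources used here.

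Mean signals were corrected for background by normexp (offset 50), control and outlier spots were left out (0.0377% of noncontrol spots), arrays were normalised by loess, and log2(Cy3/Cy5) was fitted with limma 3.58.1 in R 4.3.3 over all 30 arrays, with Benjamini-Hochberg adjustment over 21019 probes of that table that were well above background in Cy3 on both arrays of at least 1 tissue. Cy3 levels came from normalisation of average intensities between arrays (Aquantile). The number of arrays, 2 per tissue, limits the precision. Symbols came from the study's probe lists, names only, which hold 5971 probes, updated through RefSeq (GRCm38.p6): 3619 symbols were current, 1866 synonyms and 486 neither. The build of the files' design annotation is older, and none of its coordinates is used. The brightest probe stood for a gene. Named were the 4 genes, the 4 probes most correlated with each, and up to 4 genes of each list with the largest difference between large and small intestine among those called (among all measured where none was); Phgr1, Ptx4, Vil1 and other marker genes named beyond that were chosen after their values were seen. The 4 genes and the lists were chosen with earlier results of these data known. List counts and medians cover all measured members, and the values of some single members are not reported here. The fit was tested on simulated data.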

Additional observations from a re-analysis of the deposited data

How the results depend on the processing

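The 3 genes that passed the F-test over the 13 tissues outside the intestine, and both tests of the small intestine, kept their call and direction under every alternative that could be fitted. Mptx1, at background in those tissues, passed that F-test with slide as a fixed block alone (adjusted p = 0.000563 by limma), from which nothing is read. Differences of the large intestine moved by more than the spread between its arrays as follows, for Mptx1 against the other 14 tissues and for Plet1 against the small intestine. With processed signals they were 6.03 and 5.81, with median centring 4.71 and 5.23, in the values tabulated by the authors 6.17 and 5.81, with slide as a random block 6.78 and 6.08. Plet1 also gave 6.03 with slide and 6.68 with scan day as a fixed block. As a Cy3 level, chosen after seeing the data, Mptx1 gave 11.42 and AA467197 7.47, and AA467197 gave 5.60 with median centring. Leaving out 1 array at a time gave 6.22 to 6.39 for Mptx1 and 5.32 to 5.89 for Plet1.

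Of the 62 list genes past the filter, those of smooth muscle, skeletal muscle, leukocytes and pancreas left aside, 3 were called higher and 8 lower in the large than in the small intestine. The higher count was 5 with scan day as a fixed block and as a Cy3 level, and 2 to 5 when 1 array was left out (2 without small intestine array 1, 5 without fat array 1 or 2). The lower count was 12 as a Cy3 level and 6 to 9 when 1 array was left out. With only the 4 intestine arrays in the fit both counts were 0 by limma, with 14 list genes at an unadjusted p under 0.05. With all probes of the array, 30034 of 34637 probes differed among the 13 tissues. Among the calls of single tissues, that of AA467197 in heart was lost with processed signals (-0.73), in the authors' table (-0.75), with slide as a random block and without single arrays. Those in bladder and brain cortex were lost with median centring (-0.96 and -0.94), and those of Plet1 in kidney (adjusted p = 0.0537) and AA467197 in bladder (0.0663) with slide as a random block.

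The replicate number as a block left 18740 probes in the F-test against 18588 and changed no call of the 4 genes. Whether equal numbers mark the same animal was not settled. Deviations of the same number correlated over 0.1 in 33 of 105 pairs of tissues (median 0.05, -0.25 to 0.34). With slide or scan day as a fixed block the comparisons of the small intestine, or of 1 tissue, with tissues that share no block could not be fitted. Depth is not given by arrays; Mptx1 outside the intestine, AA467197 in liver and Plet1 in muscle were limited by background, as were single arrays of Plet1 in bone, AA467197 in muscle and Hoxaas3 in brain cortex, heart and liver.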
